A study of Mus musculus with 2 samples.

Results

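The transcripts of 9 genes of neutrophils and inflammatory myeloid cells (S100a8, S100a9, Retnlg, Csf3r, Il1b, Lyz2, Csf1r, Cd68 and Alox5ap) were followed cell by cell in 2 single-cell RNA-seq libraries of mouse spleen. The genes were chosen by name, and all 9 were listed in both read tables, which together list 30457 genes. The spleen cells came from female C57BL/6J mice of 10 weeks that carried a subcutaneous Lewis lung carcinoma (LLC, a transplantable mouse lung tumour). Every animal had been given 200 µg of an anti-CD4 antibody on day 5 and again on day 9, and spleens were taken on day 12. Cells of 3 spleens were pooled, depleted of red cells with ACK buffer, frozen, thawed and loaded (2000 cells) on 1 cartridge of BD Rhapsody, a system that captures single cells in nanowells on barcoded beads. The beads were then divided between 2 ways of amplifying the cDNA: TAS-Seq, in which terminal transferase adds a C tail that a dideoxynucleotide stops, and the whole-transcriptome kit of the maker (BD WTA), which uses random primers. There was 1 library per method, with no tumour-free and no untreated animals and no way to separate the pooled animals. No test between the methods was therefore possible, and the intervals given are exact 95% intervals (Clopper-Pearson for shares of cells or reads, Poisson for levels) that cover counting error only. The tables count reads rather than molecules, so reads of 1 gene in 1 cell are not independent of each other.

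S100a8 and S100a9 encode the subunits of calprotectin, a calcium-binding and zinc-binding protein that fills the cytosol of neutrophils and is released in inflammation. Neutrophils are made in the bone marrow under the cytokine G-CSF, whose receptor is encoded by Csf3r, while monocytes and macrophages depend on the receptor for M-CSF, encoded by Csf1r. The spleen holds a reservoir of both lineages, which is known to expand in mice with tumours.

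The genes that carry most of the reads described here are neighbours or near copies of other genes, and the sequences below are shown for that reason. S100a8 lies at chr3:90668978-90670035 on the forward strand and S100a9 at chr3:90692632-90695721 on the reverse strand, with 22596 bases between them (GRCm38, GENCODE vM21). The bases just before both genes and before Retnlg (chr16:48872621-48874496, forward strand) are from RefSeq on build GRCm38.p6. They are printed 5′ to 3′ on the strand of the gene. These 3 genes had most of their reads in the neutrophil-marked cells described below, with Retnlg in only part of those cells. Capitals mark matches, on either strand, to the core of the C/EBP motif (TTNNGCAA) or of the PU.1 motif (GAGGAA), which belong to transcription factor families of the myeloid lineage.
S100a8, chr3:90668821-90668977: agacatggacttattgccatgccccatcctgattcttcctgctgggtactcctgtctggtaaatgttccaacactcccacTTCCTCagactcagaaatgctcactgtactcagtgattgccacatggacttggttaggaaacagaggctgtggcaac
S100a9, chr3:90695722-90695971: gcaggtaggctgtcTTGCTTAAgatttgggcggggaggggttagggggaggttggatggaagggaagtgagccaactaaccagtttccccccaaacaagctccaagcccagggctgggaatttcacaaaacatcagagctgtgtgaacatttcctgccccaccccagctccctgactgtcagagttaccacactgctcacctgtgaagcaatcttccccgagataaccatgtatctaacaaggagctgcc
Retnlg, chr16:48872358-48872607: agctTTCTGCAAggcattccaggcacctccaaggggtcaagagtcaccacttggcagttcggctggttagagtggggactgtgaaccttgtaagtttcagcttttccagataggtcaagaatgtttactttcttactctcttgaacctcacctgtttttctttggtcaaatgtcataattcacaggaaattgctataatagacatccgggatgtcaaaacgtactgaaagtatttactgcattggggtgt
S100a8 showed 1 PU.1 match in the 157 bases printed, after 93 bases that lie inside the annotated gene were left out. S100a9 and Retnlg each showed 1 C/EBP match in 250 bases. Upstream windows of 250 bases were searched for 7 of the 9 genes, and those of Csf1r and Alox5ap were not searched. Of the 7 windows, 3 held a C/EBP match (S100a9, Retnlg and Cd68) and 3 a PU.1 match (S100a8, Csf3r and Cd68). Among all 32851 windows of this length, 9.56% held the first and 23.3% the second, so such matches are common and describe letters only.

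Lyz2, the lysozyme gene of macrophages and neutrophils, has a near copy in Lyz1, the lysozyme gene of Paneth cells, 5475 bases away on chromosome 10. The coding sequences are both 444 bases long and identical at 422 of them, and 32.8% of all windows of 31 bases in the Lyz2 transcripts also occur in Lyz1. The coding exon 2 of both genes (165 bases, GRCm38, reverse strand, printed in the direction of transcription) is given with the 6 differing bases in capitals.
Lyz2, chr10:117280641-117280805: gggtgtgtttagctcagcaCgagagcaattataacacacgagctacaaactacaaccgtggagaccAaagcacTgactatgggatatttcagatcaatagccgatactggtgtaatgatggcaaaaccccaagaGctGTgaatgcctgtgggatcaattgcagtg
Lyz1, chr10:117291029-117291193: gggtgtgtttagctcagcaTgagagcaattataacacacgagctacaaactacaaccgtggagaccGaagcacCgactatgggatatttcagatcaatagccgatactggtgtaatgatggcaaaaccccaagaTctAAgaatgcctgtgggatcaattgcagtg
Reads that fall wholly between the capitals cannot be placed on 1 of these genes. How many Lyz2 reads this touches was not tested, since read length and place in the transcript were not examined. Lyz1 was listed with 102 reads in the TAS-Seq library and 70 in the BD WTA library, against 1625 and 3787 for Lyz2. Of the other genes, Csf3r shared 24.4% of its windows with another annotated gene, AC105061.2, which neither table lists, and Retnlg shared 5.51%, most of them with Retnla. The remaining 6 genes shared no window of 31 bases with another gene.

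Depth was similar in the libraries: 38656790 reads over 736 barcodes for TAS-Seq (46515.5 at the median barcode) and 31608259 over 716 for BD WTA (38154 at the median). No barcode occurred in both. Barcodes with at least 500 genes and at most 25% mitochondrial reads were kept (732 and 708 cells). Cells were named from marker lists that left out the 9 genes: a cell took the class for which the largest share of markers reached 4 reads, with at least 3 such markers. Myeloid-marked cells numbered 22 of 732 (3.01%, 1.89 to 4.52) in TAS-Seq and 28 of 708 (3.95%, 2.64 to 5.67) in BD WTA. Lymphocyte-marked cells (B, T and NK) numbered 702 and 661. By further markers, 10 TAS-Seq and 9 BD WTA cells were neutrophil-marked, 3 and 5 were monocyte- or macrophage-marked, and 5 and 5 were dendritic-marked. Of the myeloid-marked cells, 4 of BD WTA had only 3 or 4 myeloid markers, and 4 of TAS-Seq also had at least 3 markers of a lymphocyte list.

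The neutrophil-marked cells were named by a list of 11 genes, of which at least 3 had to reach 4 reads. The presence of that list was therefore fixed in advance and is no check of the name. Markers of the competing classes and subtypes were limited by the same rules. In TAS-Seq, 10 of the 11 reached 4 reads in at least 1 of these cells, and Camp was at 0. In BD WTA, 9 of the 11 did, and Ltf and Cd177 were at 0. The summed level of the list ranged from 2779 to 16190 counts per 1000000 reads (CPM) for TAS-Seq (10 cells) and from 3904 to 50930 CPM for BD WTA (9 cells). Megakaryocyte and platelet markers were at 0 in all of these cells, and no NK or erythroid marker reached 4 reads. The summed level of 8 B-cell markers was 41.9 to 183 CPM in the TAS-Seq cells, none of them at 4 reads, and 0 to 337 CPM with a median of 0 in the BD WTA cells. Markers of other types were not absent: 4 and 3 of 11 monocyte or macrophage markers reached 4 reads in a cell, with summed levels of up to 1036 and 3906 CPM. The highest summed level was 1845 CPM for plasma-cell markers in TAS-Seq, and 819 CPM for T-cell and 1630 CPM for plasmacytoid dendritic markers in BD WTA. Their part in the values below was not tested.

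**Figure D1:**
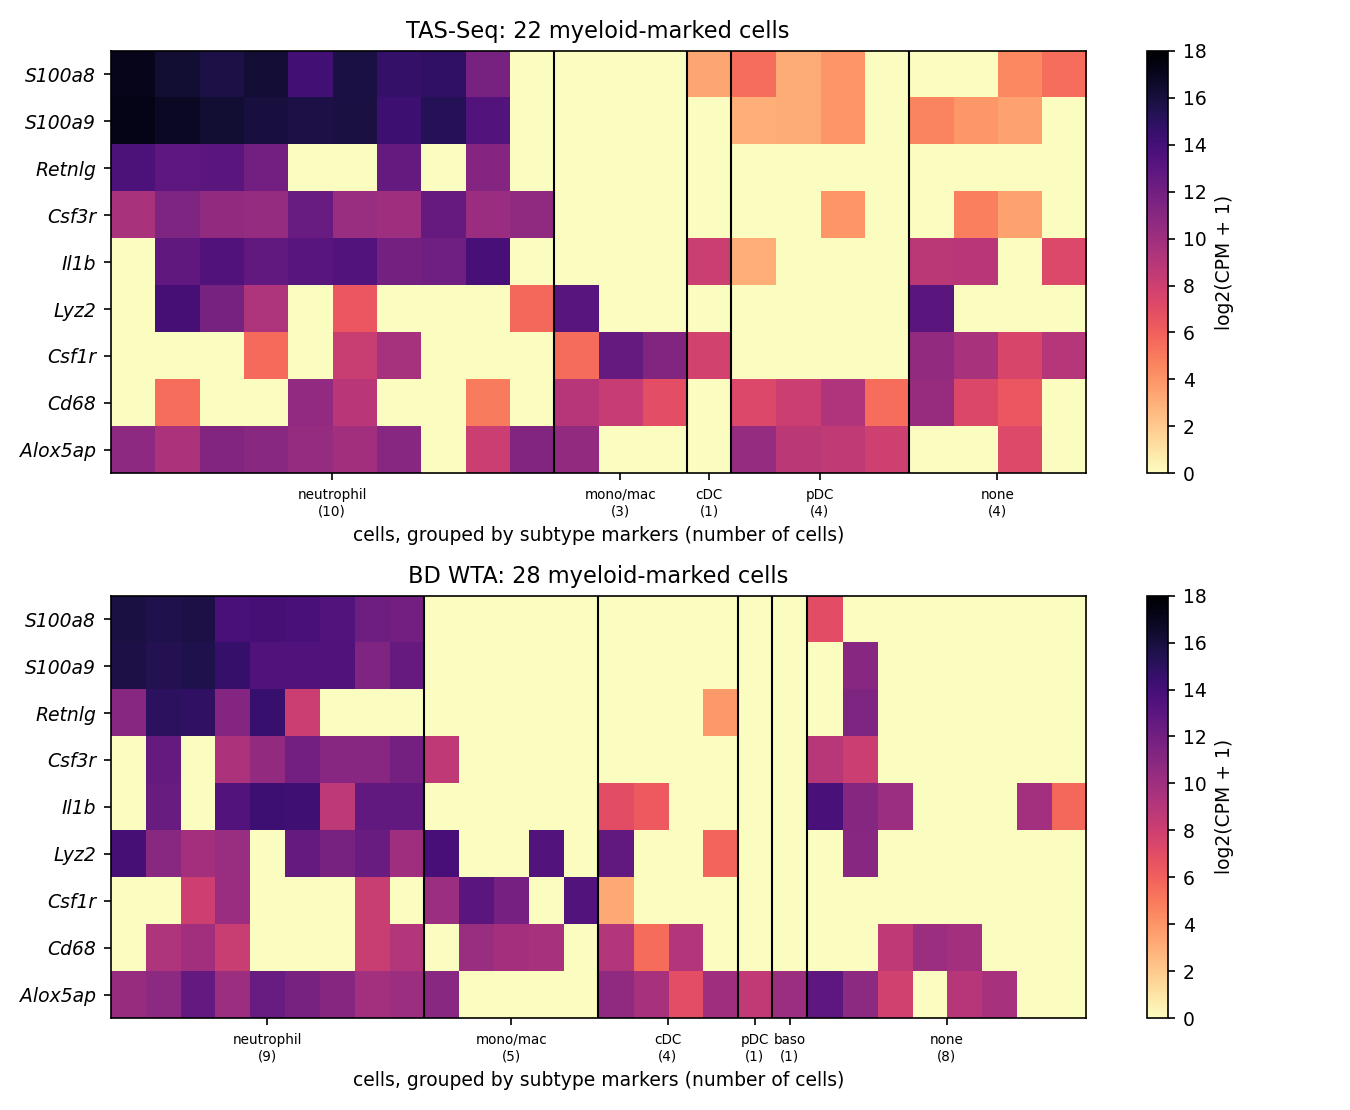
Heat maps of log2(CPM + 1) for the 9 genes (lines) in each myeloid-marked cell (columns), for TAS-Seq above and BD WTA below; cells are grouped by subtype markers (mono/mac, monocyte or macrophage; cDC and pDC, conventional and plasmacytoid dendritic; baso, basophil or mast), with the number of cells in brackets. The dark block of S100a8, S100a9, Retnlg, Csf3r and Il1b fills most of the 10 and 9 neutrophil-marked cells, whereas Csf1r is darkest in monocyte- or macrophage-marked cells.

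High values of S100a8 and S100a9 lay in a handful of cells, and in TAS-Seq values of 1 to 4 reads were spread over many more: 294 and 305 of 732 cells held a read there, against 17 and 18 of 708 in BD WTA. Across the neutrophil-marked cells, S100a8 ranged from 0 to 6268 reads with a median of 1120 in TAS-Seq, and from 102 to 3383 with a median of 387 in BD WTA. S100a9 ranged from 0 to 6461 reads (median 1788) and from 80 to 3066 reads (median 405). The cell ranges overlapped between the methods, and the TAS-Seq medians were the higher ones. Both genes reached at least 5 reads in 9 of 10 cells for TAS-Seq and in 9 of 9 for BD WTA. The exception, a TAS-Seq cell of 40534 reads, held no read of either gene but 64 of Csf3r and 96 of Alox5ap, with 5 neutrophil markers. At the other end, the TAS-Seq cell with the most calprotectin reads (6268 and 6461) gave 30.4% of its 43997 reads to the 9 genes together, and held 0 reads of Il1b and of Lyz2.

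S100a8 made up 45.2% (44.8 to 45.7) of the calprotectin reads in these cells for TAS-Seq and 51.4% (50.6 to 52.1) for BD WTA. From cell to cell this share ran from 24.7% to 55.9% and from 34.9% to 62.6%, so the cells of 1 library spread over more than the distance between the libraries. Of all S100a8 reads, the neutrophil-marked cells held 97.6% in TAS-Seq and 99.9% in BD WTA. Of the S100a9 reads they held 97.8% and 99.4%. The monocyte- or macrophage-marked cells of both libraries held 0 reads of either gene.

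Retnlg encodes a resistin-like secreted protein of mouse neutrophils. It was present in part of the neutrophil-marked cells: 6 of 10 in TAS-Seq and 6 of 9 in BD WTA reached 5 reads. Its reads per cell ran from 0 to 555 (median 119) and from 0 to 1200 (median 99). The 4 and 3 cells at 0 all held reads of S100a8 and S100a9, apart from the TAS-Seq cell without calprotectin described above. Outside these cells, Retnlg reached 5 reads in 1 other cell of each library, a TAS-Seq B-marked cell with 33 reads and a BD WTA myeloid-marked cell without a subtype with 63 reads.

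Csf3r, the G-CSF receptor, was the only 1 of the 9 genes that reached 5 reads in every neutrophil-marked cell of TAS-Seq, with 29 to 210 reads (median 60) in the 10 cells. In BD WTA it ranged from 0 to 219 reads (median 63) and reached 5 reads in 7 of 9 cells. The 2 BD WTA cells at 0 held 3383 and 1720 reads of S100a8, among the 3 highest values of that library. Compared with S100a8, S100a9, Retnlg and Il1b, more of its reads lay elsewhere, as the neutrophil-marked cells held 86.5% of its reads in TAS-Seq and 74.3% in BD WTA. Single BD WTA values of 47 reads in a T-marked cell and of 30 and 25 reads in B-marked cells stood outside.

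Il1b encodes the inflammatory cytokine interleukin-1β, which is made as a precursor and cut by caspase-1 before release. Neutrophil-marked cells held 94.6% of its reads in TAS-Seq and 81.1% in BD WTA. Their values ran from 0 to 521 reads (median 262.5) and from 0 to 475 reads (median 194), and 8 of 10 and 7 of 9 reached 5 reads. The BD WTA cells at 0 for Il1b were the same 2 cells that were at 0 for Csf3r. Il1b was not confined to neutrophil-marked cells: the 1 conventional dendritic-marked cell of TAS-Seq held 29 reads, 2 of 4 such cells of BD WTA held 10 and 14, and a BD WTA myeloid-marked cell without a subtype held 242.

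Alox5ap encodes FLAP, the membrane protein that presents arachidonic acid to 5-lipoxygenase in leukotriene synthesis. It reached 5 reads in 9 of 10 neutrophil-marked TAS-Seq cells (0 to 117 reads, median 63) and in 9 of 9 BD WTA cells (28 to 198 reads, median 71). It also reached 5 reads in cells of every myeloid subtype of BD WTA. All 4 plasmacytoid dendritic-marked cells of TAS-Seq held it (22 to 180 reads), as did all 4 conventional dendritic-marked cells of BD WTA (20 to 185 reads) and the 1 basophil- or mast-marked cell (60 reads). Neutrophil-marked cells therefore held 51.3% and 43.8% of its reads.

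Csf1r, the M-CSF receptor, showed the opposite placement from Csf3r. Its reads in the 3 monocyte- or macrophage-marked cells of TAS-Seq were 1, 99 and 114, and in the 5 such cells of BD WTA they were 0, 96, 149, 262 and 363. These cells held 46.6% of all Csf1r reads in TAS-Seq and 92.2% in BD WTA. A further 157 TAS-Seq reads lay in the 4 myeloid-marked cells without a subtype, each with 17 to 62. The neutrophil-marked cells held 8.28% and 7.10%, with medians of 0 reads.

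Lyz2 was divided between the lineages and between the methods. In the neutrophil-marked cells its reads ranged from 0 to 756 with a median of 1 in TAS-Seq, and from 0 to 879 with a median of 74 in BD WTA. It reached 5 reads in 3 of 10 (30%, 6.67 to 65.2) and in 8 of 9 (88.9%, 51.8 to 99.7) of them, and these intervals overlap. A single TAS-Seq neutrophil-marked cell held 46.5% of all Lyz2 reads of that library. In BD WTA the highest value, 1284 reads, lay in a monocyte- or macrophage-marked cell that also held 96 reads of Csf1r and 167 of Alox5ap.

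Cd68, a glycoprotein of lysosomes that is widely used to stain macrophages, was the least concentrated gene. Its highest value was 61 reads in TAS-Seq and 94 in BD WTA. It reached 5 reads in 3 of 3 and 3 of 5 monocyte- or macrophage-marked cells, in 3 of 4 plasmacytoid dendritic-marked TAS-Seq cells and in 3 of 4 conventional dendritic-marked BD WTA cells. Of the neutrophil-marked cells, 2 of 10 and 5 of 9 did so. Myeloid-marked cells held only 45.5% of its reads in TAS-Seq and 65.4% in BD WTA, and T- and B-marked cells with clear values accounted for much of the rest: of 13 values of at least 20 reads found for the 9 genes outside TAS-Seq myeloid-marked cells, 6 were Cd68, and of 12 such values in BD WTA, 7 were.

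**Figure D2:**
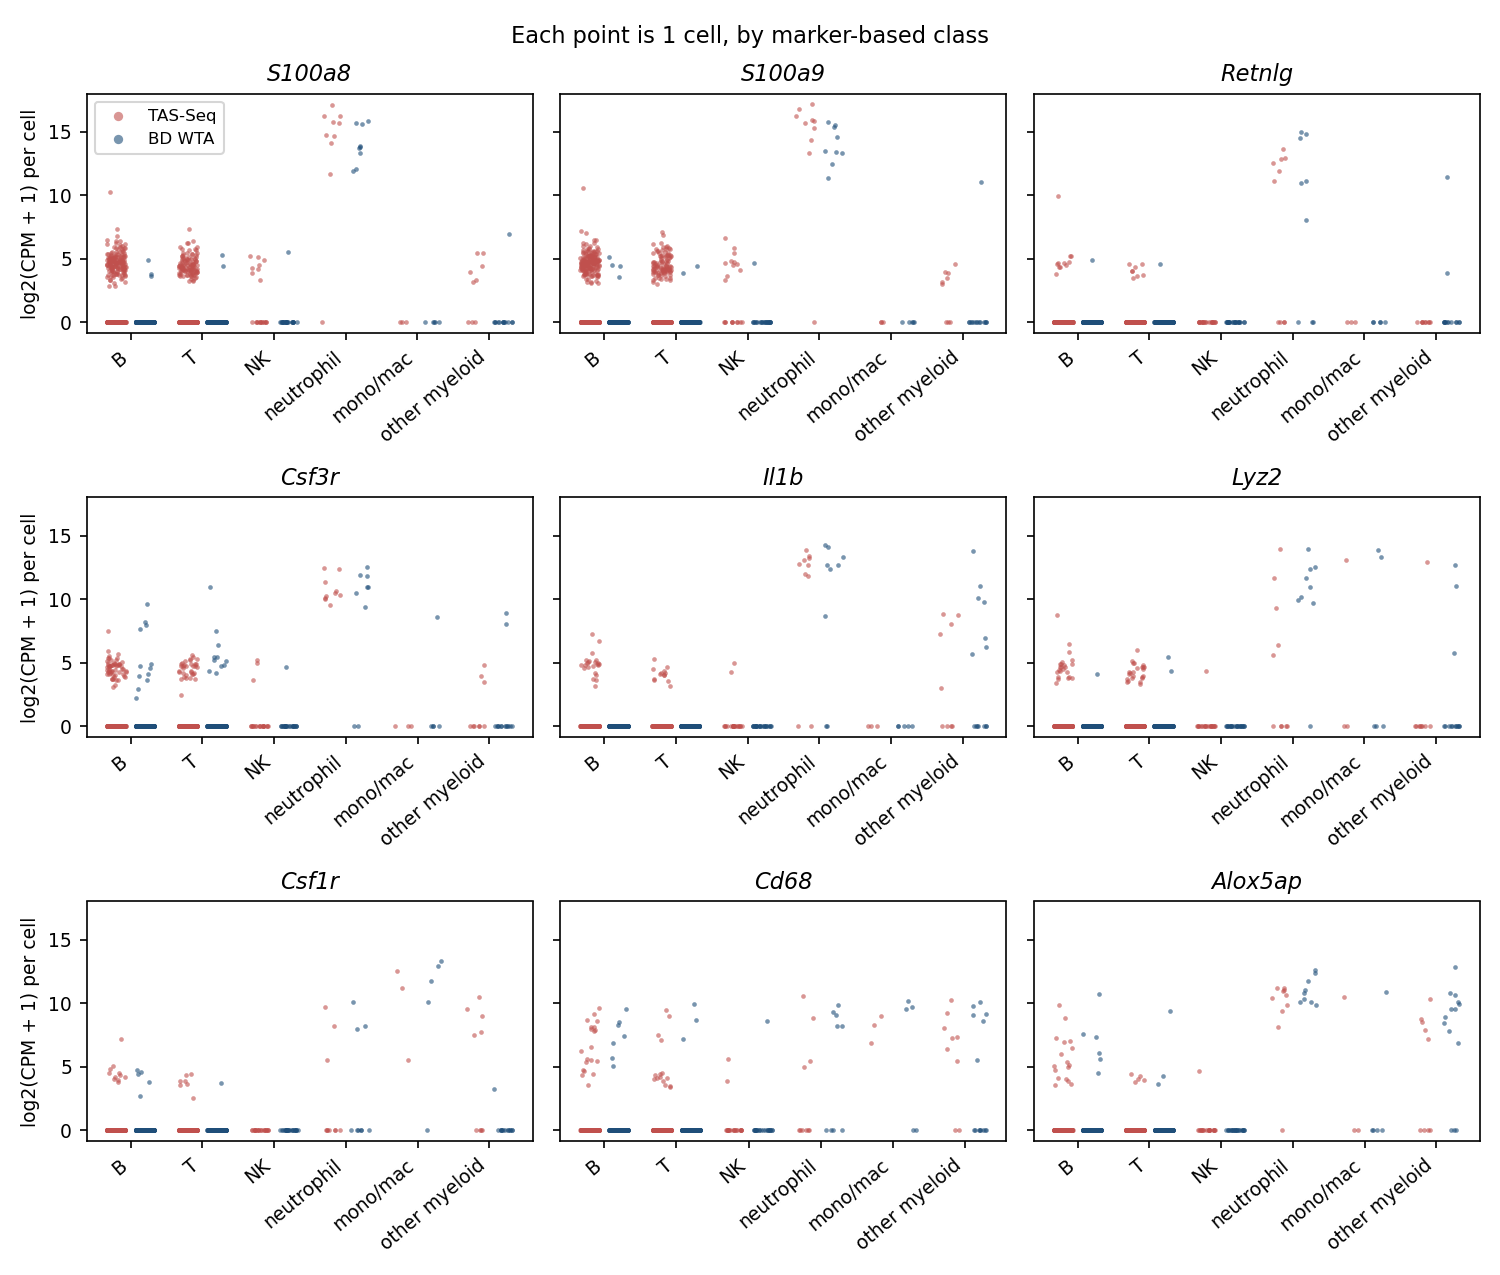
Level of the 9 genes as log2(CPM + 1), 1 panel per gene, with each point a cell of TAS-Seq or BD WTA placed by its marker class (mono/mac, monocyte or macrophage; other myeloid, the remaining myeloid-marked cells). The highest S100a8 and S100a9 points (up to 6461 reads) are neutrophil-marked cells, and the dense low points of TAS-Seq B- and T-marked cells are values of mostly 1 to 4 reads.

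Whole libraries thus owed each gene to few cells. The 10 cells with the most reads of a gene held 63.9% (Cd68) to 99.2% (Retnlg) of its reads in TAS-Seq, and 71.8% (Cd68) to 100% (Retnlg) in BD WTA. Such cells held at least 50% for 9 of 9 genes in both libraries. Among 12421 TAS-Seq genes with at least 100 reads in at least 20 cells, 25.5% were that concentrated, and among 10111 BD WTA genes 38.2% were; in BD WTA only Csf3r, Cd68 and Alox5ap were found in 20 cells. Reads reached 90% of the total within 5 cells for Retnlg and Lyz2 in TAS-Seq and within 3 cells for Retnlg in BD WTA, but took 22 cells for Csf3r and Cd68 in TAS-Seq.

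Myeloid-marked cells, which held 3.25% of all TAS-Seq reads and 4.57% of all BD WTA reads, carried more than 50% of the reads of 8 of the 9 genes in TAS-Seq and of 9 of 9 in BD WTA. Among genes with at least 100 reads, 1.55% of 13247 in TAS-Seq and 2.31% of 12533 in BD WTA did so. Within the neutrophil-marked cells, the 9 genes together took a median of 10.9% of the reads (0.400% to 30.4%) in TAS-Seq and 5.72% (2.25% to 14.04%) in BD WTA. In the lymphocyte-marked cells the highest such share was 0.276% and 0.208%.

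With 5 reads as the limit, 19 TAS-Seq and 12 BD WTA cells held exactly 1 of the genes S100a8, S100a9, Retnlg, Csf3r and Il1b, and 1 and 2 cells held 2 of them. A smaller set held them together: 5 TAS-Seq and 4 BD WTA cells held all of them. At least 3 of these 5 genes were found in 9 TAS-Seq cells, all neutrophil-marked, and in 10 BD WTA cells, of which 9 were neutrophil-marked. The tenth, without a subtype, held 47 reads of S100a9, 63 of Retnlg, 49 of Il1b and 6 of Csf3r but 0 of S100a8. Only 1 cell, in BD WTA, held all 9 genes.

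Pairs of genes were compared by the cells that held both as a share of those that held either. S100a8 and S100a9 shared 10 of 20 cells (50%, 27.2 to 72.8) in TAS-Seq and 9 of 10 (90%) in BD WTA. The TAS-Seq cells with only 1 of them all held it at 5 to 9 reads, since with at least 10 reads the share was 10 of 10. Counting every value of 1 read or more lowered it to 32.5% of 452 cells (TAS-Seq) and 34.6% of 26 (BD WTA). The 10 pairs among S100a8, S100a9, Retnlg, Csf3r and Il1b had medians of 43.5% (31.25% to 56.25%) in TAS-Seq and 44.6% (25% to 90%) in BD WTA. The other 26 pairs had medians of 15.5% (0% to 37.5%) and 25.7% (10.5% to 69.2%), so the ranges overlapped. These 5 genes also had the largest shares of their reads in neutrophil-marked cells, so the split is no separate evidence. In BD WTA, S100a9 and Lyz2 reached 69.2%. S100a8 and Lyz2 met in 3 of 18 cells for TAS-Seq and 8 of 13 for BD WTA, and Retnlg and Cd68 shared no TAS-Seq cell.

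Over all filtered cells, the likeness of other genes was described by Pearson's r of log2(CPM + 1), the smaller value of the libraries deciding, with 11413 genes compared and the cells of 1 library sharing 1 preparation and differing in depth. Retnlg was most like Hp (haptoglobin; r = 0.70 over the 732 cells of TAS-Seq and 0.74 over the 708 of BD WTA), followed by Clec4d and Mcemp1. Clec4d, a C-type lectin receptor of myeloid cells, was also the gene most like Csf3r (0.59 and 0.57), Il1b (0.65 and 0.70) and Alox5ap (0.62 and 0.60). For Il1b, Gm5150 and Lrg1 followed, and for Alox5ap, Hp and Mmp9. No gene reached 0.5 in both libraries for S100a8, S100a9, Lyz2, Csf1r or Cd68. S100a8 and S100a9 themselves had r = 0.35 in TAS-Seq and 0.88 in BD WTA.

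The low values of these genes in lymphocytes differed far more between the methods than the high ones. Each cell was thinned to 20000 reads, which left 682 TAS-Seq and 612 BD WTA lymphocyte-marked cells and dropped 25 and 63 shallower cells of all classes. At least 1 read of any of the 9 genes was found in 47.1% (43.3 to 50.9) of those from TAS-Seq and in 6.86% (4.99 to 9.16) of those from BD WTA. With at least 5 reads, the shares were 2.05% (1.13 to 3.42) and 2.12% (1.14 to 3.61). Before thinning, 72.9% of 702 and 9.68% of 661 cells held a read.

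The classes of lymphocytes were alike in this. Any of the 9 genes was found in 48.5% of B-marked, 44.5% of T-marked and 52.4% of NK-marked cells of TAS-Seq, and in 6.04%, 7.34% and 13.6% of those of BD WTA, with overlapping intervals within each library. S100a8 was found in 18.5% (15.6 to 21.6) against 0.654% (0.178 to 1.66), and S100a9 in 19.8% (16.9 to 23.0) against 0.490% (0.101 to 1.43). Of the TAS-Seq cells positive for S100a8, 88.9% held exactly 1 read. Without these 2 genes the share with any read was 18.04% (15.2 to 21.1) in TAS-Seq and 5.72% (4.02 to 7.86) in BD WTA. Csf3r, in 5.43% against 2.61%, came next in TAS-Seq and first in BD WTA. Il1b was found in 3.08% against 0 of 612, for which the exact interval reaches up to 0.601%.

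Markers that lymphocytes of another class should lack were also found at 1 read in larger shares of TAS-Seq cells. At 20000 reads, at least 1 read of 8 B-cell markers was found in 91.6% (87.6 to 94.7) of the T-marked cells of TAS-Seq and in 19.3% (14.7 to 24.6) of those of BD WTA. At 5 reads the shares were 4.94% and 4.25%. The class rule limits these in advance, since a T-marked cell must have a larger share of T-cell than of B-cell markers at 4 reads. At least 1 read of 8 T-cell markers was found in 63.6% of the B-marked cells of TAS-Seq and in 16.6% of those of BD WTA. Reads of any of the 9 genes were found in lower shares of all lymphocyte-marked cells, 47.1% and 6.86%. These shares are not like for like, since B- and T-marked cells made up most of each library. Single reads of the 9 genes there are not taken as expression, and what they stand for was not tested. The part of free RNA in these low values was not tested.

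Before thinning, the reads in lymphocyte values of 1 to 4 were set against the reads of the same gene in myeloid-marked cells. Over the 9 genes there were 21.1 such reads per 1000 in TAS-Seq (1096 reads) and 1.85 per 1000 in BD WTA (56 reads). The window of 1 to 4 reads is not alike for the methods. The median non-zero value over all genes was 4 in TAS-Seq and 10 in BD WTA. Of the Cd68 reads in lymphocyte-marked cells, 33 of 326 in TAS-Seq and 3 of 275 in BD WTA lay in it. For S100a8 these were 393 of 474 and 6 of 6. The rates therefore cover low values only. S100a8 and S100a9 gave 72.4% of these low reads in TAS-Seq and 23.2% in BD WTA. The TAS-Seq rate was 11.5 to 25.9 per 1000 for S100a8, S100a9, Retnlg, Il1b and Alox5ap, 35.9 and 41.7 for Lyz2 and Csf1r, and 121 and 144 for Cd68 and Csf3r. S100a8 made up 49.6% (46.0 to 53.1) of the calprotectin reads among these low TAS-Seq values, above the 45.2% of the neutrophil-marked cells as a whole and within the range of single cells. Of the 702 TAS-Seq lymphocyte-marked cells, 277 held S100a8, 287 held S100a9 and 133 held both, while of the 661 BD WTA cells 6 held the first, 7 the second and none both.

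A few lymphocyte-marked cells stood above that low level. The clearest was a TAS-Seq cell with 7 of 8 B-cell markers, 2 neutrophil markers, 66 reads of S100a8 and 86 of S100a9. Another TAS-Seq B-marked cell held 88 reads of Alox5ap with 4 B-cell and 8 myeloid markers. Of all lymphocyte-marked cells, 668 of 702 in TAS-Seq and 641 of 661 in BD WTA held none of the 9 genes at 5 reads, and 3 TAS-Seq cells held 2 of them.

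**Figure D3:**
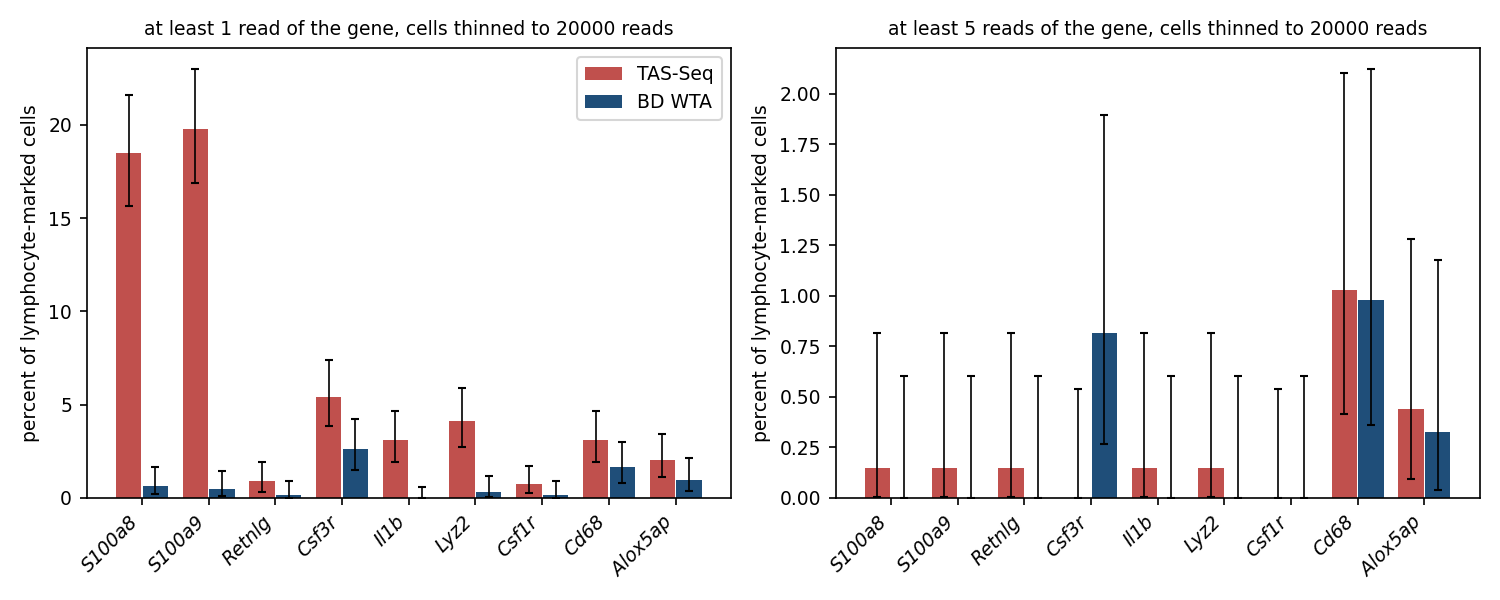
Share of lymphocyte-marked cells (percent, each cell thinned to 20000 reads) with at least 1 read and with at least 5 reads of each gene, in 682 TAS-Seq and 612 BD WTA cells; bars show the share and lines the exact 95% interval, which covers counting error only. The S100a8 and S100a9 bars reach 18.5% and 19.8% in TAS-Seq at 1 read and fall to the level of the other genes at 5 reads.

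Over all filtered cells at 20000 reads, 9 of 9 genes were read at least once in more of the cells, by share, with TAS-Seq than with BD WTA. This was also so for 88.6% of 18477 genes. At 2 reads it was so for 4 of 9 genes (74.7% of all genes) and at 5 reads for 3 of 9 (62.5% of all genes). At 5 reads the intervals of the libraries overlapped for each of the 9 genes. S100a8, for instance, was found at 1 read in 19.7% and 2.02% of cells (TAS-Seq and BD WTA), and at 5 reads in 1.41% and 1.40%.

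The pooled level of each gene, as CPM over the filtered cells of a library, was compared between methods as the log2 ratio of TAS-Seq to BD WTA. S100a8 was at 524 CPM (517 to 532) and 283.5 CPM (278 to 289), a log2 ratio of 0.89. S100a9 was at 634 and 269.8 CPM, a log2 ratio of 1.23 (1.20 to 1.27). These were the only 2 genes of the 9 that were higher in TAS-Seq. The other 7 were higher in BD WTA: Lyz2 (42.1 and 120.3 CPM, log2 ratio −1.51), Csf1r (11.9 and 30.0, −1.33), Retnlg (46.5 and 95.2, −1.03), Alox5ap (28.3 and 53.9, −0.93), Cd68 (15.5 and 25.2, −0.70), Il1b (66.9 and 77.4, −0.21) and Csf3r (23.9 and 26.6, −0.15).

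Among 10028 genes with at least 10 CPM in a library and reads in at least 10 cells, 56.5% were higher in TAS-Seq, with a median log2 ratio of 0.10, whereas the median of the 9 genes was −0.70. A log2 ratio of 1 in either direction was passed by 4 of the 9 genes, and by 15.9% of all genes. S100a9 passed it toward TAS-Seq, as did 10% of all genes, and 3 of the 9 genes (Lyz2, Csf1r and Retnlg) passed it toward BD WTA, as did 5.81% of all genes. Without the cell with the most reads of each gene, S100a8 came to 1.04 and Retnlg to −0.83, on the other side of a ratio of 1, and Alox5ap to −1.004, so that 5 genes passed it. A pooled level rests on how many source cells a library caught and on the level in each. Neutrophil-marked cells held 0.980% of all TAS-Seq reads and 0.995% of all BD WTA reads. Whether a difference in level comes with the method or with the cells caught cannot be told apart with 1 library per method. With the reads of the neutrophil-marked cells alone, the log2 ratio was 0.88 for S100a8, 1.23 for S100a9 and −1.02 for Retnlg. It was 0.09 (−0.06 to 0.24) for Csf3r and 0.03 (−0.05 to 0.12) for Il1b, intervals that include 0. Lyz2, Csf1r, Cd68 and Alox5ap stayed on the BD WTA side, at −0.94, −1.09, −0.50 and −0.67.

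Scaled to transcript length, S100a9 was at 1221 CPM per kilobase in TAS-Seq and 519.9 in BD WTA, and S100a8 at 1079 and 583. Both were the highest of the 9 in both libraries, with or without this scaling. Retnlg was at 78.4 and 160.5 CPM per kilobase, Csf3r at 6.86 and 7.63 and Csf1r at 2.53 and 6.38. The cDNA is primed on the poly(A) tail, so reads need not grow with transcript length, and the low place of the long receptor transcripts depends on the scaling. Lyz2 was at 32.0 and 91.4, Il1b at 49.4 and 57.1, Alox5ap at 22.6 and 43.1 and Cd68 at 12.6 and 20.5 CPM per kilobase.

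**Figure D4:**
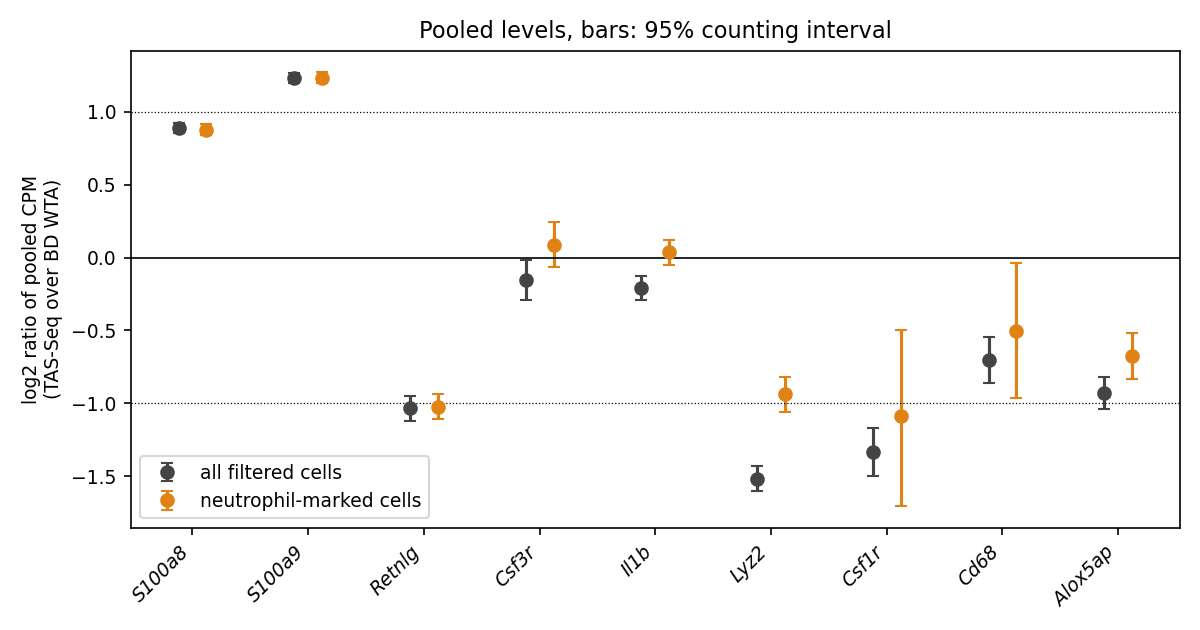
Log2 ratio of TAS-Seq to BD WTA for each gene, from the reads of all filtered cells and from the neutrophil-marked cells alone (10 and 9 cells); lines are 95% counting intervals and the dotted lines mark a ratio of 1 in either direction. S100a8 and S100a9 lie to the TAS-Seq side in both, and Csf3r and Il1b lie next to 0 in the neutrophil-marked cells.

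Other genes of the same pathways were read from lists chosen by function, without the 9 genes. Of 22 neutrophil granule and surface genes, 12 had enough reads to compare, 0 passed a log2 ratio of 1 toward TAS-Seq (10% of all genes) and 4 passed it toward BD WTA (5.81% of all genes). Lcn2 (lipocalin-2, which binds bacterial siderophores) was at 17.1 and 70.4 CPM, and Mmp8 (neutrophil collagenase) at 9.36 and 30.0 CPM. Mmp9 (gelatinase B) was at 18.7 and 16.99 CPM and reached 5 reads in 9 of 10 and 9 of 9 neutrophil-marked cells, and Cxcr2, the chemokine receptor of neutrophils, did so in 9 and 9. Ngp, a granule gene of immature neutrophils, reached 5 reads in only 2 such cells of each library. Of the 22 genes, 11 (Lcn2, Mmp8, Mmp9, Cxcr2 and Ngp among them) are the markers that named the neutrophil-marked cells, so their place there is no finding. Of the other list genes with at least 100 reads, 7 of 8 in TAS-Seq and 6 of 8 in BD WTA had more than 50% of their reads in neutrophil-marked cells, among them Clec4d, Hp, Trem1 and G0s2. The share of all genes that did so was not counted. For all myeloid-marked cells, which include the neutrophil-marked ones, it was 1.55% and 2.31%. Pglyrp1, at 48.3 and 88.3 CPM the highest of the list, was an exception, with 26.3% and 26.0%. Mxd1 was another in BD WTA only, with 64.7% in TAS-Seq and 27.8% in BD WTA.

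Of 23 monocyte and macrophage genes, 12 were compared, of which 0 passed toward TAS-Seq (10% of all genes) and 5 toward BD WTA (5.81% of all genes). The most abundant, Ctss (cathepsin S, at 415 and 587 CPM) and Cybb (the NADPH oxidase subunit gp91phox, at 278 and 282 CPM), had at most 10.8% of their reads in myeloid-marked cells. C1qb, a complement subunit of tissue macrophages, was at 4.95 and 23.5 CPM, and is itself 1 of the markers by which the monocyte- or macrophage-marked cells were named. Hmox1, the haem-degrading enzyme, was at 17.6 and 65.3 CPM.

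Of 13 genes of the interleukin-1 pathway, 6 were compared and none passed a log2 ratio of 1 in either direction (15.9% of all genes). Pycard (the inflammasome adaptor ASC) had 4260 and 2403 reads, Irak1 (the receptor-associated kinase) 5341 and 7557, and Casp1 (caspase-1) 1674 and 1157, against 2583 and 2437 of Il1b, with at most 5.69% of their reads in myeloid-marked cells. Nlrp3, the inflammasome sensor, had 8 TAS-Seq reads in 4 cells, none at 5 reads, against 259 BD WTA reads, which reached 5 reads in 4 of the 9 neutrophil-marked cells. Il1rn, the receptor antagonist, had 59 and 189 reads, and Il1a had none in either library. Alox5, the lipoxygenase that works with FLAP, had 72 and 114 reads, with 94.4% and 99.1% in myeloid-marked cells. Of 10 leukotriene and prostaglandin genes, 3 were compared. Of these, 1, Ptgs2 (cyclooxygenase-2, at 2.77 and 10.9 CPM), passed toward BD WTA (5.81% of all genes).

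Of 9 colony-stimulating factors and further receptor genes, 4 were compared and 2 passed toward BD WTA (5.81% of all genes), with none toward TAS-Seq (10% of all genes). These were Csf1, the ligand of Csf1r (72 and 536 reads), with 79.1% of its BD WTA reads in neutrophil-marked cells, of which 1 reached 5 reads, and Csf2ra, a subunit of the GM-CSF receptor (13.8 and 53.3 CPM). Csf3, which encodes the ligand of Csf3r, had 0 reads in both libraries. Of 10 further genes with S100 symbols, 6 were compared and none passed in either direction (15.9% of all genes). Among the 6 was S100pbp, which encodes a binding protein and not an S100 protein. S100a10, the most abundant gene of that list in TAS-Seq (350 and 254 CPM), had 0.0222% and 3.65% of its reads in myeloid-marked cells, whereas S100a6 had 46.3% and 52.3%.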

How the data were processed

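Per the labels, 1 TAS-Seq and 1 BD WTA library were made from beads of 1 cartridge. The deposited values are counts of reads for each gene in each barcode, whole numbers, without molecular identifiers and not normalized by the authors. The submitters' processing notes name cutadapt 2.10, Bowtie2 2.4.2, R 3.6.3 and the builds GRCm38 and GRCh38, and the study maps reads to cDNA and non-coding RNA on the forward strand. The study describes a background subtraction for TAS-Seq, and its use on these tables is not given in the sources used here; values of 1 read remain in both. A read count also carries the amplification of each molecule.

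Cells with at least 500 genes and at most 25% mitochondrial reads were kept, and were thinned to 20000 reads (seed 1) where shares of cells were compared. Scrublet (scanpy 1.11.5) called 3 TAS-Seq and 4 BD WTA doublets, which were kept. The class rule (4 reads, 3 markers, no tie) was set after the cells had been seen. The 9 genes and all lists were chosen with earlier results of these data known, and the rule for other named genes took up to 3 with the highest r of at least 0.5 in both libraries, and in each list those with the highest level. Some list genes were named after their values were seen. Alternatives used edgeR 4.0.16 (TMM) and Seurat 5.3.0. Scripts (Python 3.11.15, scipy 1.17.1) were tested on simulated data.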

Additional observations from a re-analysis of the deposited data

How the results depend on the processing

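No paired analysis was possible because there was 1 library per method and no result came from a test. Of 79 alternatives for 13 summary results, 63 stayed within the limits set for a change and 16 moved, and none of the 63 alternatives for single ratios changed the sign of a ratio that was past 1. With neutrophil-marked cells alone (chosen after seeing the data), 4 genes were higher in TAS-Seq instead of 2, with Csf3r at 0.09 and Il1b at 0.03. Of the 9 genes, 4 had the larger share of positive cells in TAS-Seq with at least 2 reads, 3 with at least 5 and 4 with at least 10, against 9 with 1 read. Seurat clusters named by the same markers put 9.56% of TAS-Seq cells in the myeloid class, and no BD WTA cluster took that name, so no value could be had there. Of the 70 cells in that TAS-Seq cluster, only 20 were myeloid-marked. A BD WTA cluster of 70 cells that was named B held 24 of the 28 myeloid-marked cells of that library. The share of lymphocyte-marked cells with a read was 9.68% (at least 2 reads), 2.05% (at least 5), 72.9% (no thinning) and 17.9% (5000 reads) in TAS-Seq, and 3.59%, 2.12%, 9.68% and 2.72% in BD WTA. S100a8 and S100a9 were found together in 100% of TAS-Seq cells with at least 10 reads and after thinning, and in 34.6% of BD WTA cells with at least 1 read. Leaving out the cell with the most reads of each gene put S100a8 at 1.04, S100a9 at 1.43, Retnlg at −0.83 and Lyz2 at −1.82. Weighting each cell equally put Lyz2 at −0.74 and Csf1r at −0.96, no longer past 1, and S100a8 at 1.07 and Alox5ap at −1.16, past it. TMM factors put Alox5ap at −1.01, so 5 genes passed instead of 4. Depth and 9 or 10 source cells limit every level: the counting intervals leave out the spread between cells, animals and libraries.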

Other observations

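Some cells took no class, and their reads enter the values over all filtered cells but no class. A BD WTA cell of 13139 reads and 644 genes, without a class, held 55 reads of Il1b and 8 of Csf3r with 1 neutrophil marker. A TAS-Seq cell of 15378 reads, the shallowest of its library, held 76 reads of Lyz2 and no read of the other 8 genes, with 2 myeloid markers. The 4 TAS-Seq and 8 BD WTA barcodes removed by the filter held 3 reads of the 9 genes in each library. None of these barcodes reached 5 reads of any of the 9 genes. The neutrophil-marked TAS-Seq cell without a read of S100a8 or S100a9 had 10 myeloid and 5 neutrophil markers and 2349 genes, and was not among the shallow cells. The BD WTA cell with the most S100a8 reads (3383) held 879 reads of Lyz2, the highest Lyz2 value among the neutrophil-marked cells of both libraries, and 0 of Csf3r and of Il1b. No explanation of these values was tested.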
